A study of Homo sapiens with 4 samples.

Results

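The FOS and JUN family genes FOS, FOSB, FOSL1, FOSL2, JUN, JUNB and JUND were followed by name, and each had 1 entry among the 18398 gene entries of every library. All 7 were found. The family was picked because FOSL1 was at least 2-fold higher after CDCA8 silencing in both cell lines, so its membership was chosen from measured values and the FOSL1 response is given only as a description, without a test. The other 6 genes were taken because they belong to the same families.

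The study silenced CDCA8, a subunit of the chromosomal passenger complex that guides chromosome segregation and cytokinesis, in the hepatocellular carcinoma cell lines Huh1 and Huh7. Cells received 15 nM of CDCA8-1siRNA or of a negative control siRNA (NCsiRNA) in cationic lipid, and total RNA was sequenced 48 h later. Each line gave 1 control and 1 silenced library, 4 in all, and the spread between replicate cultures was not measured. A single siRNA sequence stood for CDCA8 silencing, and both controls were transfected cells, so untreated cells were not compared.

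The libraries held 12197606 to 13384836 reads as worked back from the files, and levels were RPKM, reads scaled to transcript length and library size. CDCA8 itself was at 24.1 RPKM in control and 5.86 RPKM in silenced Huh1 cells, which left 24.3%. In Huh7 the levels were 51.5 and 7.36 RPKM, which left 14.3%. The cell type was checked against 9 hepatocyte markers, none of which was under 1 RPKM in any library. Their summed level was 5215 RPKM with NCsiRNA and 4004 with CDCA8-1siRNA in Huh1, and 3308 and 2321 in Huh7, and 7 of the 9 were lower with CDCA8-1siRNA in both lines. Of 5 markers of other cells, PTPRC (blood) and VWF (endothelium) stayed under 1 RPKM in every library. The bile duct keratin KRT7 was at 84.4 RPKM in control Huh1 cells, and the stromal collagen COL1A1 was at 107 RPKM in control Huh7 cells against 0.115 in control Huh1 cells. These 5 markers summed to 84.5 RPKM in control and 81.9 RPKM in silenced Huh1 cells, and to 139 and 183 RPKM in Huh7. The part of these shifts in the values given here was not tested. In bulk RNA, fewer cells of a type and less RNA per cell cannot be told apart.

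The products of these genes form AP-1, a transcription factor made of pairs of basic leucine zipper (bZIP) proteins that bind the palindrome TGANTCA or the longer TGACNTCA. JUN proteins can pair with each other or with FOS proteins, while FOS proteins need a partner such as a JUN protein. FOS, FOSB, JUN and JUNB are classic immediate early genes, switched on within minutes of growth factor, cytokine or stress signals through MAP kinases and serum response factor. FOSL1 (FRA1) and FOSL2 (FRA2) lack the strong activation domain of FOS, respond more slowly and are under AP-1 control themselves. JUND is expressed in most resting cells, and JUNB often restrains JUN. In liver, JUN is known for its part in hepatocyte proliferation, regeneration and tumour formation.

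The start regions of the 3 members whose levels rose by the test across both lines are shown, with JUNB, whose level did not rise, for contrast. Each runs from 150 bases before the RefSeq transcript start to 20 bases from it, on GRCh38.p14, read 5′ to 3′ along the gene. Capitals mark matches to TGANTCA, TGACNTCA or the TATA box letters TATAAA.
FOS (chr14:75278678-75278847, plus strand): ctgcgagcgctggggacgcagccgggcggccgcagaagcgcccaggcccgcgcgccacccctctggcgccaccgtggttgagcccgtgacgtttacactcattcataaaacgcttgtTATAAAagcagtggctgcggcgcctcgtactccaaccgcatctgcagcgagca
FOSL2 (chr2:28392708-28392877, plus strand): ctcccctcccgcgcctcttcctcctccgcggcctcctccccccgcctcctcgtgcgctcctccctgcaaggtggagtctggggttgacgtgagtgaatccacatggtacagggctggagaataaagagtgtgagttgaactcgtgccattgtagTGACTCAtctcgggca
JUN (chr1:58784028-58784197, minus strand): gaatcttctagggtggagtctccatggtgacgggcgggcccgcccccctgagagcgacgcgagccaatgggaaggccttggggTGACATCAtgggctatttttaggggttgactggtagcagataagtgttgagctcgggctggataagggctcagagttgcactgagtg
JUNB (chr19:12791336-12791505, plus strand): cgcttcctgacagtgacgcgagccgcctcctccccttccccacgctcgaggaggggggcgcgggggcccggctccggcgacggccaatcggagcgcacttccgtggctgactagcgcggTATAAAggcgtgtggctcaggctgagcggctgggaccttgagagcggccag

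A search on both strands ran from 250 bases before the start to 50 bases after it. It covered 6 of the 7 members, because no start region was available for FOSL1. FOS, FOSB and JUNB held TATAAA, with its first letter 33, 30 and 31 bases before the start. These letters occurred in 11.5% of the 35116 start regions searched. FOSL2 held TGACTCA, the AP-1 palindrome, from base 5 of its transcript, and TGANTCA was found in 7.71% of all start regions. JUN held TGACATCA, the letters of its known autoregulatory AP-1-like site, 67 bases before its start, and JUND held TGACGTCA, the cyclic AMP response element, 200 bases before its start. TGACNTCA was found in 7.72% of all start regions. The serum response element core was found in 1.29% of all start regions and in none of the 6 members' windows. Elements more than 250 bases before a start lay outside the windows and were not searched. A match describes the letters only. JUN, JUNB and JUND have 1 exon each by GENCODE 29, and the 4 FOS genes have 4 exons each. FOSL1 lies on chromosome 11 from 65892049 to 65900573 on the minus strand of GRCh38, and FOSB, JUNB and JUND are all on chromosome 19, at separate places.

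Levels can be set side by side between genes because RPKM is per length. In control Huh1 cells the order was JUN at 15.5, JUND at 14.4, FOSL1 at 11.96, JUNB at 11.7, FOSL2 at 3.41, FOS at 1.73 and FOSB at 0.435 RPKM. JUN and JUND, JUND and FOSL1, and FOSL1 and JUNB had overlapping 95% Poisson intervals, which cover counting error only, while the JUN interval lay above those of FOSL1 and JUNB. In control Huh7 cells JUNB led at 33.6 RPKM, followed by JUN at 24.7, JUND at 19.6, FOSL1 at 7.86, FOSL2 at 4.34, FOS at 1.06 and FOSB at 0.261, and no neighbouring intervals overlapped. With CDCA8-1siRNA, FOSL1 at 26.4 RPKM and JUN at 25.5 RPKM were highest in Huh1, with overlapping intervals. In Huh7 JUN was then highest at 37.9 RPKM, and JUND at 23.2 and JUNB at 23.1 RPKM followed, with overlapping intervals. FOS and FOSB were the lowest members in all 4 libraries.

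**Figure D1:**
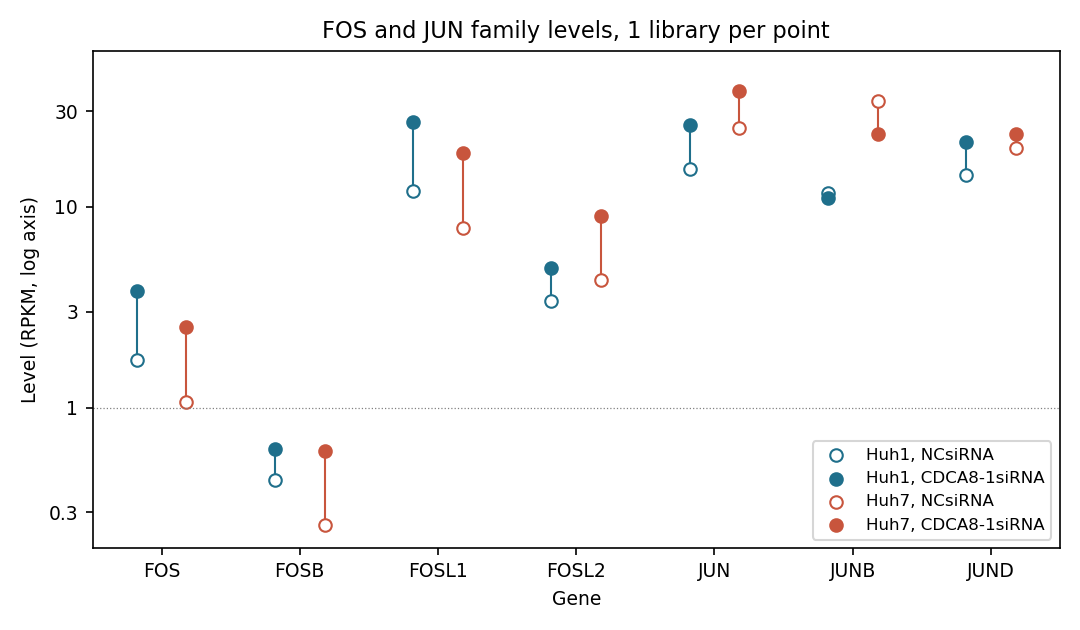
Level of each family gene in each library (RPKM, log axis), with open circles for NCsiRNA and filled circles for CDCA8-1siRNA, Huh1 in blue and Huh7 in red, and a line joining the libraries of a cell line. FOSL1 was at 11.96 and 26.4 RPKM in Huh1 and at 7.86 and 18.6 RPKM in Huh7, JUNB was the only gene lower with CDCA8-1siRNA in both lines, and FOSB stayed under 1 RPKM (dotted line).

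Among the FOS genes, FOSL1, FOS and FOSL2 were all higher after CDCA8 silencing in both lines, by 1.46- to 2.38-fold in RPKM. FOSL1, a driver of motility and invasion in many carcinomas, was at 11.96 RPKM with NCsiRNA and 26.4 RPKM with CDCA8-1siRNA in Huh1, from 267 and 581 reads. In Huh7 it was at 7.86 and 18.6 RPKM, from 160 and 380 reads. Both silenced libraries were above both control libraries. This order follows from the rule that chose FOSL1, because its control levels were only 1.52-fold apart. For FOSL1 and the other members, the share of all genes with this order was not counted. The ratio was 2.21 in Huh1 (95% exact binomial interval 1.91 to 2.56 from the reads, counting error only) and 2.36 in Huh7 (1.96 to 2.86). On the log2(RPKM + 1) scale, which understates the change of low genes, the differences were 1.08 with a sampling SD of 0.0998 and 1.14 with a sampling SD of 0.123. These are the values that chose the family. By that scale 20 of 10940 genes in Huh1 and 54 of 11565 genes in Huh7 had a higher fold change than FOSL1. A gene entered these counts if either library of the line had 1 RPKM or more, and 0.32% of them in Huh1, 0.873% in Huh7 and 0.106% of the 10357 genes entered in both lines reached 2-fold higher. FOSL1 was the only member past that limit in both lines. FOS did not reach it, at 0.82 in Huh1 and 0.77 in Huh7 on the log2(RPKM + 1) scale. A higher fold change than that of FOS was found for 86 genes in Huh1 and 256 in Huh7. By the plain RPKM ratio FOSL1 and FOS both exceeded 2 in both lines, as did 0.338% of the 10357 genes.

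FOS, the founding immediate early member of the family, was at 1.73 RPKM (50 reads) with NCsiRNA and 3.83 RPKM (109 reads) with CDCA8-1siRNA in Huh1. In Huh7 it was at 1.06 RPKM (28 reads) and 2.53 RPKM (67 reads). The gene was low throughout. Its silenced libraries both lay above both controls, an order whose share over all genes was not counted. The RPKM ratio was 2.21 (1.57 to 3.16) in Huh1 and 2.38 (1.51 to 3.84) in Huh7. Over both lines FOS rose by 0.80 (SE 0.140) on the log2(RPKM + 1) scale, with an adjusted p of 0.0103 by limma with cell line as a covariate and Benjamini-Hochberg adjustment over 10357 genes.

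FOSL2, which like FOSL1 lacks the strong activation domain of FOS, was at 3.41 and 4.98 RPKM in Huh1 with NCsiRNA and CDCA8-1siRNA. In Huh7 it was at 4.34 and 9.06 RPKM. Here too both silenced libraries were above both controls, an order not counted over all genes. The silenced Huh7 value was well above the other 3. The RPKM ratio was 1.46 (1.26 to 1.69) in Huh1 and 2.09 (1.84 to 2.37) in Huh7. Over both lines FOSL2 rose by 0.68 on the log2(RPKM + 1) scale (SE 0.142, limma adjusted p = 0.0201). The response was larger in Huh7 than in Huh1 by 0.48 on that scale, beside a read sampling SD of 0.116. Without replicate libraries this difference between the lines could not be tested.

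FOSB, best known for its lasting splice product in neurons, was close to the floor of the data. It was at 0.435 and 0.622 RPKM in Huh1 (22 and 31 reads) and at 0.261 and 0.605 RPKM in Huh7 (12 and 28 reads), with NCsiRNA and CDCA8-1siRNA. Both silenced libraries were above both controls, again an order not counted over all genes. The ratio was 1.43 (0.801 to 2.59) in Huh1, an interval that includes no change, and 2.32 (1.14 to 5.01) in Huh7. FOSB did not reach 1 RPKM in any library and so entered no test, which left 6 members tested.

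Among the JUN genes, JUN rose by the test over both lines, while JUND, with higher levels, and JUNB, with lower levels, did not pass it. JUN, the cellular form of a retroviral oncogene, was at 15.5 RPKM (690 reads) and 25.5 RPKM (1117 reads) in Huh1 with NCsiRNA and CDCA8-1siRNA. In Huh7 it was at 24.7 RPKM (1001 reads) and 37.9 RPKM (1546 reads). Each silenced library was above its own control, but the Huh1 silenced value was close to the Huh7 control value. The RPKM ratio was 1.64 (1.49 to 1.81) in Huh1 and 1.54 (1.42 to 1.66) in Huh7, and the difference of the log2(RPKM + 1) changes between the lines, -0.08, was within its sampling SD of 0.0871. Over both lines JUN rose by 0.64 on the log2(RPKM + 1) scale (SE 0.0961, limma adjusted p = 0.00568).

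JUND was at 14.4 and 21.1 RPKM in Huh1 and at 19.6 and 23.2 RPKM in Huh7, with NCsiRNA and CDCA8-1siRNA. The silenced libraries were the highest pair, an order not counted over all genes, and were separated from the Huh7 control by little. The RPKM ratio was 1.46 (1.28 to 1.68) in Huh1 and 1.19 (1.04 to 1.35) in Huh7. The change over both lines was 0.38 on the log2(RPKM + 1) scale and missed the threshold (SE 0.108, limma adjusted p = 0.0589), although it passed when genes under 5 RPKM were left out (adjusted p = 0.0477) and after quantile normalization (adjusted p = 0.0329).

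JUNB, which often counters JUN at shared target genes, had lower levels with CDCA8-1siRNA. It was at 11.7 and 11.1 RPKM in Huh1 (284 and 266 reads) and at 33.6 and 23.1 RPKM in Huh7 (745 and 514 reads), with NCsiRNA and CDCA8-1siRNA. The cell lines did not overlap, and within Huh1 the libraries were almost level. The RPKM ratio was 0.950 (0.801 to 1.13) in Huh1 and 0.686 (0.612 to 0.769) in Huh7. Over both lines the change was -0.30 on the log2(RPKM + 1) scale (SE 0.124, limma adjusted p = 0.167), and it differed between the lines by -0.46, beside a sampling SD of 0.138. JUNB shares exon sequence with HOOK2 on the opposite strand, and the library kit did not mark strand, so reads there cannot be told apart. HOOK2 was at 2.65, 2.60, 3.20 and 3.81 RPKM in Huh1 NCsiRNA, Huh1 CDCA8-1siRNA, Huh7 NCsiRNA and Huh7 CDCA8-1siRNA.

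**Figure D2:**
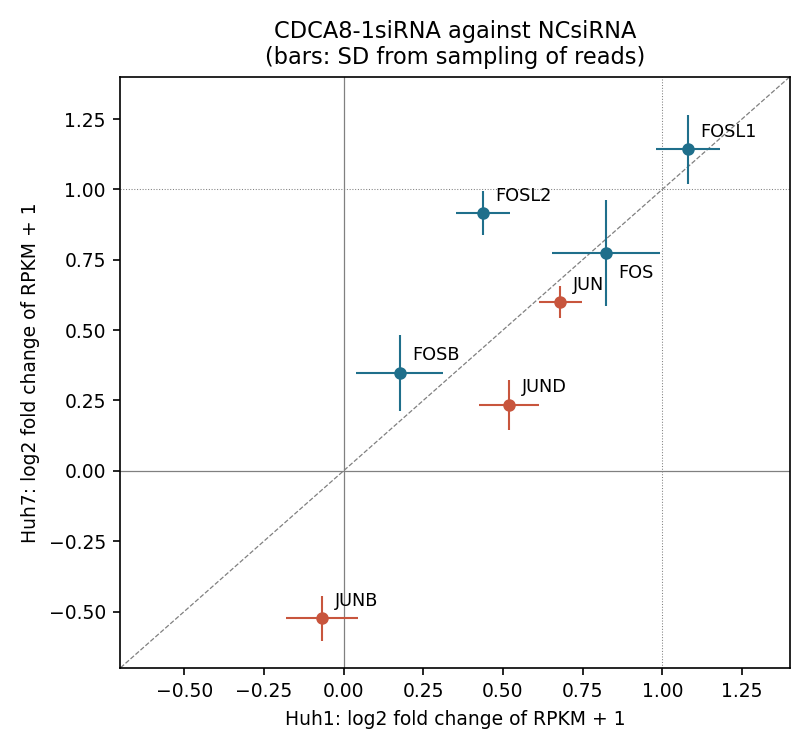
Change after CDCA8-1siRNA in Huh1 (horizontal) against Huh7 (vertical), as log2 fold change of RPKM + 1, for FOS genes (blue) and JUN genes (red), with bars for the SD that read sampling gives, a dashed line of equal change and dotted lines at 2-fold. FOSL2 lies above the dashed line (0.44 and 0.91), and JUND (0.52 and 0.23) and JUNB (-0.07 and -0.52) lie below it.

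Of the 5 tested members other than FOSL1, JUN, FOS and FOSL2 passed the limma test as higher with CDCA8-1siRNA and none passed as lower. Over all 10357 genes tested, 6.03% passed as higher and 4.21% as lower. The family was looked at because FOSL1 was high in the same libraries, so the count describes its members and is no independent evidence. The median change of the 6 tested members, FOSL1 among them, was 0.60 in Huh1 and 0.69 in Huh7 on the log2(RPKM + 1) scale, beside 0.0208 and 0.0257 over all genes tested. The fit has 4 libraries and 1 residual degree of freedom, so its p-values rest mainly on a spread borrowed from all genes (8.29 prior degrees of freedom) and treat the cell lines as the replicates. With cell line left out of the fit, or with no minimum level, none of the 3 passed, with adjusted p-values of 1 and of 0.252 to 0.292.

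The makeup of the family shifted with these changes. With NCsiRNA and CDCA8-1siRNA the 4 FOS genes summed to 17.5 and 35.8 RPKM in Huh1 (2.04-fold), and to 13.5 and 30.8 RPKM in Huh7 (2.28-fold). The 3 JUN genes summed to 41.6 and 57.7 RPKM in Huh1 (1.39-fold), and to 77.9 and 84.2 RPKM in Huh7 (1.08-fold). The FOS sum thus differed by more than the JUN sum. The JUN sum was 2.37 times the FOS sum in control and 1.61 times in silenced Huh1 cells, and 5.76 and 2.74 times in Huh7. FOSL1 made up 68.2% of the FOS sum in control and 73.7% in silenced Huh1 cells, and 58.2% and 60.4% in Huh7. FOSL1 was thus the main FOS transcript in every library. Within the JUN genes, JUN took 37.3% of the sum in control and 44.2% in silenced Huh1 cells, and 31.7% and 45.0% in Huh7. JUNB took 28.1% and 19.3% in Huh1, and 43.2% and 27.4% in Huh7. With NCsiRNA the leading JUN transcript was JUNB in Huh7, while in Huh1 JUN and JUND had overlapping counting intervals, and with CDCA8-1siRNA it was JUN in both. These sums hold the values that chose FOSL1 and were given no test.

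**Figure D3:**
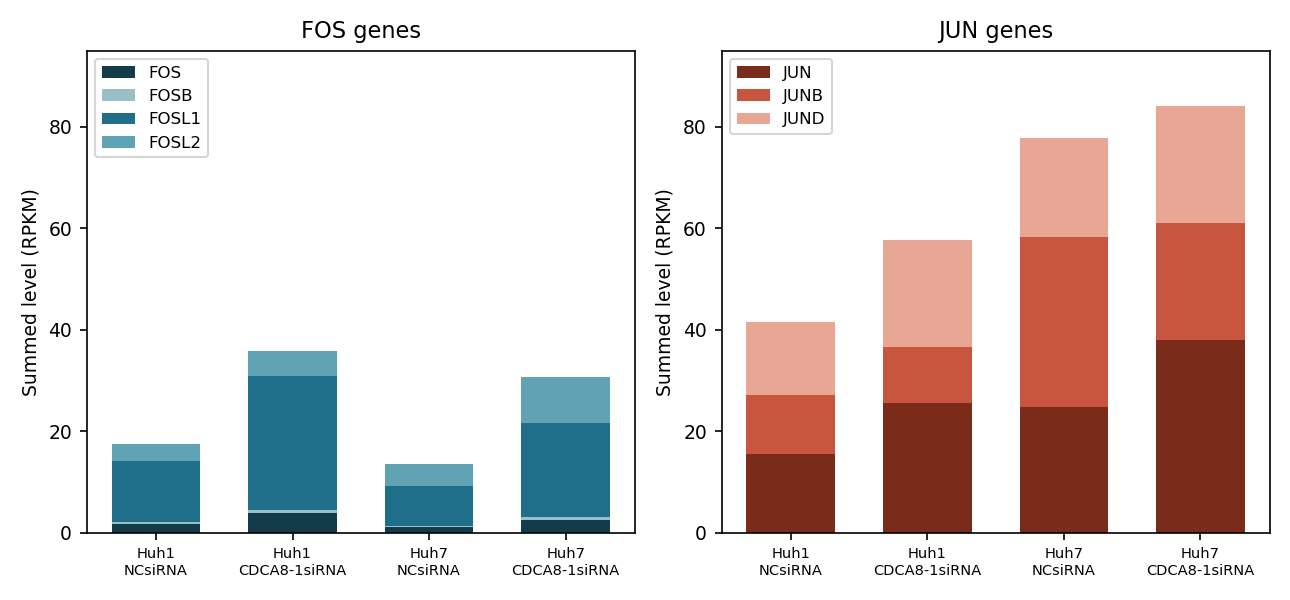
Summed level (RPKM, axis from 0) of the 4 FOS genes and of the 3 JUN genes in each library, stacked by gene. The FOS sum is 17.5 and 35.8 in Huh1 and 13.5 and 30.8 in Huh7, mostly FOSL1, while in Huh7 the JUN share of the stack widens from 31.7% to 45.0% as that of JUNB narrows from 43.2% to 27.4%.

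The lines also differed in their family levels, a contrast that did not choose any member. All 6 tested members passed the limma test of Huh7 against Huh1 with siRNA as a covariate. FOSL2, JUN, JUNB and JUND were higher in Huh7, where 39.1% of all genes tested passed as higher, and FOS and FOSL1 were lower in Huh7, where 28.7% passed as lower. Since most genes tested passed in one direction or the other, the share is not particular to the family. JUNB had the largest difference, 1.22 on the log2(RPKM + 1) scale (SE 0.124, limma adjusted p = 1.96e-05), with Huh7 over Huh1 ratios of 2.88 with NCsiRNA and 2.08 with CDCA8-1siRNA. JUN was higher by 0.60 (adjusted p = 0.000408), FOSL2 by 0.51 (adjusted p = 0.00979) and JUND by 0.27 (adjusted p = 0.0470). The JUND call was lost under 5 of 7 alternatives (adjusted p from 0.0454 to 0.311 over the 7), among them both scalings and the fit without the trend. FOSL1 differed by -0.52 on that scale (SE 0.102, adjusted p = 0.00141), being 1.52-fold higher in Huh1 with NCsiRNA and 1.42-fold with CDCA8-1siRNA. FOS differed by -0.43 (adjusted p = 0.0212). Each line gave 1 library per condition, so these p-values hold no spread between independent cultures.

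Other bZIP proteins pair with FOS and JUN proteins or compete for their sites, and 12 of 18 listed genes could be tested. Of these, 3 rose, or 25%, against 6.03% of all genes, and none fell. The list was chosen with earlier results of these data known, so its share is a description only. ATF3, a stress-induced partner of JUN, was at 4.68 and 7.67 RPKM in Huh1 and at 5.21 and 8.74 RPKM in Huh7, with NCsiRNA and CDCA8-1siRNA (limma adjusted p = 0.0116). BATF, which pairs with JUN proteins and lacks an activation domain, was at 8.11 and 13.6 RPKM in Huh1 and at 1.92 and 2.78 RPKM in Huh7 (adjusted p = 0.0342). MAFK, a small MAF protein named here because so few genes passed, was at 11.7 and 15.96 RPKM in Huh1 and at 26.6 and 34.6 RPKM in Huh7 (adjusted p = 0.0376). All 3 were thus higher with CDCA8-1siRNA within each line. At the other end, ATF2, a stress kinase target that pairs with JUN, was at 32.9 and 30.6 RPKM in Huh1 and at 52.2 and 46.2 RPKM in Huh7 (adjusted p = 0.384). NFE2L2, the oxidative stress regulator NRF2, was at 129 and 125 RPKM in Huh1 and at 97.8 and 89.0 RPKM in Huh7 (adjusted p = 0.534). On the log2(RPKM + 1) scale the median change of the 12 was 0.18 in Huh1 and 0.27 in Huh7, beside 0.0208 and 0.0257 over all genes.

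Kinases, serum response factors and ubiquitin ligases act on these genes or their proteins. Of 28 listed, 25 could be tested, none passed as higher and 1 passed as lower, or 4% against 4.21% of all genes. The one that fell was RPS6KA3 (RSK2), a growth factor-activated kinase that phosphorylates FOS. It was at 55.0 and 32.6 RPKM in Huh1 and at 181.7 and 92.8 RPKM in Huh7, with NCsiRNA and CDCA8-1siRNA (limma adjusted p = 0.00129). Each silenced library was below its own control. MKL1, a coactivator of serum response factor, was at 5.96 and 8.14 RPKM in Huh1 and at 13.8 and 17.1 RPKM in Huh7 (adjusted p = 0.0795). FBXW7, the ubiquitin ligase subunit that marks JUN for degradation, was at 4.17 and 5.15 RPKM in Huh1 and at 6.68 and 8.45 RPKM in Huh7 (adjusted p = 0.169). Neither MKL1 nor FBXW7 passed the test. On the same scale the list's median change was 0.08 in Huh1 and 0.12 in Huh7.

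Of 31 genes known as AP-1 targets, 30 were in the files and 16 could be tested. Of the tested genes 3 rose, or 18.8%, against 6.03% of all genes, and none fell. This list too was chosen with earlier results known, and its share is no independent evidence. After quantile normalization 6 targets passed as higher, and without the cell line covariate or without a minimum level 0 genes of any list did. EREG, the EGF receptor ligand epiregulin, was at 5.74 and 15.3 RPKM in Huh1 and at 13.6 and 45.5 RPKM in Huh7, with NCsiRNA and CDCA8-1siRNA (limma adjusted p = 0.000638). IL8 (CXCL8), a neutrophil chemokine, was at 7.01 and 24.7 RPKM in Huh1 and at 84.9 and 151 RPKM in Huh7 (adjusted p = 0.00344). EZR, the membrane to actin linker ezrin, was at 73.4 and 105 RPKM in Huh1 and at 101 and 125 RPKM in Huh7 (adjusted p = 0.0219). All 3 were higher with CDCA8-1siRNA in each line, IL8 by more in Huh1 and EREG by more in Huh7. HMGA1, a chromatin architectural protein, was at 288 and 279 RPKM in Huh1 and at 77.9 and 58.6 RPKM in Huh7 (adjusted p = 0.179). Among the secreted proteases of the list, MMP1, MMP3, MMP9 and MMP13 were each under 0.1 RPKM in every library. MMP7 was at 6.81 and 12.7 RPKM in Huh1 and at 0.147 and 0.291 RPKM in Huh7, and MMP10 was at 0 and 0.101 RPKM in Huh1 and at 0.419 and 1.67 RPKM in Huh7. The secreted protease PLAU was at 0.0314 and 0.0638 RPKM in Huh1. In Huh7 PLAU was lower after silencing, at 1.04 RPKM with NCsiRNA and 0.514 RPKM with CDCA8-1siRNA. MMP7, MMP10 and PLAU were each under 1 RPKM in one of the lines and so entered no test. On the same scale the list's median change was 0.23 in Huh1 and 0.25 in Huh7. IL8 and EREG are also known targets of other factors, and whether AP-1 acted on any of these genes was not measured.

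**Figure D4:**
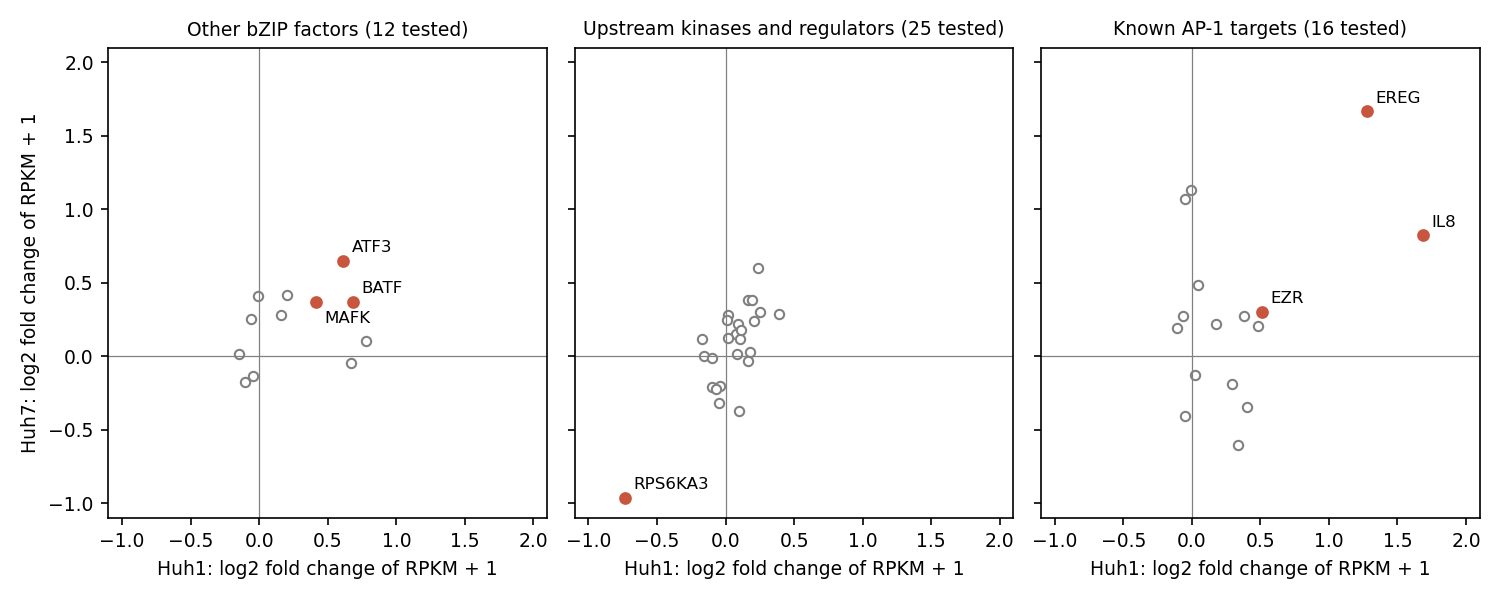
Change after CDCA8-1siRNA in Huh1 (horizontal) and Huh7 (vertical), as log2 fold change of RPKM + 1, of the tested genes of 3 lists: 12 other bZIP factors, 25 upstream regulators and 16 known AP-1 targets. Named red points passed the limma test over both lines (ATF3, BATF, MAFK, RPS6KA3, EREG, IL8 and EZR), and open circles did not.

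The genes most like FOSL1 across the 4 libraries were found by the Euclidean distance between log2(RPKM + 1) patterns centred on each gene's mean, over the 10357 genes with the other members left out. CDKN2B, the cell cycle inhibitor p15, was nearest at a distance of 0.116, with 8.81 and 19.0 RPKM in Huh1 and 5.02 and 13.5 RPKM in Huh7. ZNF257, SPTSSB, LPP and TMEM93 followed at 0.155, 0.178, 0.202 and 0.206. All 5 were higher with CDCA8-1siRNA and higher in Huh1 than in Huh7 for each siRNA. FOSL1 has the same directions and the 5 were picked for likeness to it, so this is no separate result. Among the members FOS was nearest to FOSL1, at 0.330, while FOSL2, JUN, JUND and JUNB were at 1.09 to 2.25. The genes most like JUN were CHST14 at 0.0846, EDN1 (endothelin) at 0.0951 and LRRC69 at 0.107, and among the members FOSL2 was nearest to JUN, at 0.294. With 4 points a pattern, these distances are a description.

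The genes beside FOSL1 on chromosome 11 were read in the same way. FIBP was at 32.9 and 31.8 RPKM in Huh1 and at 23.4 and 25.8 RPKM in Huh7, with NCsiRNA and CDCA8-1siRNA, and DRAP1 was at 57.8 and 62.3 RPKM and at 42.5 and 54.2 RPKM (limma adjusted p of 0.820 and 0.175). C11orf68 was at 7.50 and 9.73 RPKM in Huh1 and at 6.34 and 8.44 RPKM in Huh7 (adjusted p = 0.0792). CCDC85B, directly next to FOSL1, was at 13.5 and 16.7 RPKM in Huh1 and at 2.66 and 4.92 RPKM in Huh7, and rose by the test (adjusted p = 0.0450). No neighbour reached 2-fold in both lines.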

How the data were processed

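Gene expression was measured in 4 unreplicated libraries prepared with a TruSeq RNA kit, and samples were grouped by the cell line and siRNA in the labels, with dose and time taken from the study's methods. The authors deposited RPKM per RefSeq gene. The submitters' processing notes name CASAVA 1.8.2, TopHat2 2.0.9 and hg19, and the counter and strand setting are not given in the sources used here. Read numbers were recovered from the RPKM steps of low genes (tolerance 0.02 read) and from transcript lengths that gave whole reads, or multiples of 0.05 read for JUN, JUND and CDCA8. No length did so for FOSL2, whose reads are approximate. Only 26.5 to 29.6% of low genes came out whole, so no count test was run.

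RPKM values were compared as log2(RPKM + 1). Within a line there was no test, and sampling SDs and exact 95% intervals cover counting error only. Over both lines, limma 3.58.1 (R 4.3.3, with trend) was fitted with siRNA and cell line to the 10357 genes that reached 1 RPKM in either library of each line, with Benjamini-Hochberg adjustment at 0.05. The fit was also run on simulated data with planted changes, to see that these were recovered. The random spread between the simulated libraries was set in advance, so that run does not show that the p-values hold here. The study's own gene selection by a resampled variance analysis was not repeated here. The members and lists were chosen with earlier results of these data known. Named genes were the members, CDCA8, the 5 genes most like FOSL1 and 3 most like JUN, up to 4 genes a list with the largest or lowest same-sign change in both lines, and the 2 nearest genes on each side of FOSL1. EZR, MAFK, the secreted MMP genes, PLAU and HOOK2 were added after their values were seen. AREG was not analysed here, and 1 gene that the rule names is not reported here. Promoter letters and neighbours came from RefSeq (GRCh38.p14), and gene positions from GENCODE 29 (GRCh38). Alternatives were a pseudocount of 0.1 RPKM or none, a minimum of 5 RPKM or none, quantile and upper quartile scaling, no trend, and no covariate. The alternative with no pseudocount was added after seeing the data.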

Additional observations from a re-analysis of the deposited data

Results flagged for a closer look

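A gene near FOSL1 and a gene that overlaps JUNB had changes of opposite sign in the cell lines, both small in Huh1. FIBP, near FOSL1, had a log2(RPKM + 1) change of -0.04826 in Huh1 and 0.1372 in Huh7 after CDCA8-1siRNA. HOOK2, which overlaps JUNB on the opposite strand, had a change of -0.01942 in Huh1 and 0.1945 in Huh7. Each value comes from 1 library per condition, and the difference between the lines was not tested for either gene.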

How the results depend on the processing

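The limma fit paired the libraries by cell line through its covariate. No pairing of replicate cultures was possible, because each condition had 1 library and the labels give no replicate numbers. Leaving out a library left no residual degree of freedom. With a pseudocount of 0.1 RPKM, 107 genes in Huh1, 269 in Huh7 and 33 in both lines were at least 2-fold higher, and 57, 153 and 22 were at least 2-fold lower. After quantile normalization 22 genes in Huh1 and 6 in both lines were at least 2-fold higher. In the limma test of the siRNA effect, 0 genes passed as higher and 0 as lower without the cell line covariate (89 at an unadjusted p under 0.05), and 0 and 0 without a minimum level (2440 of 17039 at an unadjusted p under 0.05). Genes passing as lower numbered 267 without the trend and 750 after quantile normalization. After quantile normalization 1 gene of the upstream list and 6 AP-1 targets passed as higher.

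JUN, FOS and FOSL2 kept their siRNA calls under the other alternatives that tested them, with adjusted p-values over all alternatives from 7.02e-05, 0.00181 and 0.00227, in that order, up to 1. JUND ranged from 0.0329 to 1, and JUNB passed under none (0.0616 to 1). In the comparison of the lines JUNB passed under all 7 alternatives, FOSL1 and JUN under all but the fit without the siRNA covariate, FOS and FOSL2 under 4 of 6, and JUND under 2 of 7. The cause was not tested. With 28 to 109 reads, FOS had the widest intervals of the tested members.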
